A study of Mus musculus with 8 samples.

Results

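The genes of the junctions that hold epithelial cells together were compared between the club cells of mice without Atgl (Atgl KO/cTg) and of their controls (wt/cTg). They were taken by name from the array: claudins (Cldn), occludin (Ocln), zonula occludens proteins (Tjp), Marveld2 and Marveld3, and F11r for tight junctions, Cdh1 and the catenins (Ctnn) for adherens junctions, plakophilins (Pkp), Dsp, Jup, desmogleins (Dsg) and desmocollins (Dsc) for desmosomes, and connexins (Gj) for gap junctions. Of 22180 genes with a named probe set, 63 were junction genes: 29 of tight junctions, 7 of adherens junctions, 15 of desmosomes and 12 of gap junctions.

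Club cells are the secretory cells of the airway lining, and the samples are club cells isolated from the lung. Atgl, now Pnpla2, encodes the lipase that begins the breakdown of stored triglycerides. The knockout pools lack it and carry cTg, and the control pools have wild-type Atgl and carry cTg as well; the labels do not expand cTg or name a promoter for it. Each genotype had 4 arrays, and each array held RNA of a pool of 4 mice (Atgl KO/cTg) or of 3 or 4 mice (wt/cTg), from 16 and 14 mice aged 38 to 48 weeks. The animals received no treatment. The question the design poses for these genes is whether the transcripts of the airway's cell contacts differ with the loss of Atgl.

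Tight junctions seal the space between neighbouring epithelial cells near their apex. Claudins form the strands of the seal and set which ions pass, occludin and the Marveld proteins join the strands, F11r is an adhesion molecule beside them, and the Tjp proteins tie the strands to the actin cytoskeleton. Adherens junctions bind E-cadherin (Cdh1) of one cell to that of the next, with catenins linking it to actin. Desmosomes are cadherin spots (desmogleins and desmocollins) anchored to keratin filaments through plakoglobin (Jup), plakophilins and desmoplakin (Dsp). Connexins form channels that join the cytoplasm of neighbouring cells.

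Some facts of the whole series bear on what follows. Pnpla2 read 6.70 to 7.16 in the Atgl KO/cTg pools and 8.62 to 8.86 in the wt/cTg pools on the log2 scale, a difference of -1.72 (SE 0.11, limma adjusted p = 0.000116). The defining club cell marker Scgb1a1 read 12.79 to 13.03 in all 8 pools, and all 13 club cell markers were above the level filter. The cells were not free of others: Sftpc, of alveolar type 2 cells, read 12.50 to 13.03, and Cdh5, of endothelium, 9.38 to 10.82. Pools stood apart along the first principal component, which held 29.3% of the variance, with Atgl KO/cTg replicate 2 at one end and wt/cTg replicate 4 at the other, called the end pools here. Sex-linked transcripts also set wt/cTg replicate 4 apart, with a score of Xist minus Y-linked genes of -3.24 against 3.15 to 5.23 in the other pools. In pools of cells, fewer cells of a type and less RNA per cell cannot be told apart.

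The promoters of 3 of the genes that the results turn on are given first: Cldn18, with the largest difference of the junction genes, Gjb2, with the largest in the other direction, and Cldn3, with the smallest p of those higher in Atgl KO/cTg. They are the 250 bases before each transcription start in RefSeq (GRCm38.p6), and Cldn18 has 2 starts there. Capitals mark matches, on either strand, to any of 4 short motifs: CAGGTG, the E-box form bound by the Snail and Zeb repressors, AACCNGTT, the site of grainyhead-like factors, CAAGTG, a core of sites of NK2 homeodomain factors, and GGGCGG, the GC box of Sp1. No motif contains another.

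Cldn18, minus strand, chr9:99717268-99717517: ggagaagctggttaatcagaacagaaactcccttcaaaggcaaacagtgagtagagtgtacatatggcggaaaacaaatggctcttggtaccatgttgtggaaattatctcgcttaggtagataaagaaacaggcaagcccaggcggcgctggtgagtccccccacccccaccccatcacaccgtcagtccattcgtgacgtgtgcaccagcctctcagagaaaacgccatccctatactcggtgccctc

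Cldn18, minus strand, chr9:99710064-99710313: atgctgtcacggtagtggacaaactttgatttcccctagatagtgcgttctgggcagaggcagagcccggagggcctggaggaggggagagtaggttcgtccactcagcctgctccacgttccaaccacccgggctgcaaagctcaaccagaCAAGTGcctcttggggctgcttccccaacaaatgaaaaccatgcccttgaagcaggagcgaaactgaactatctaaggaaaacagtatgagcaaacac

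Cldn3, plus strand, chr5:134985964-134986213: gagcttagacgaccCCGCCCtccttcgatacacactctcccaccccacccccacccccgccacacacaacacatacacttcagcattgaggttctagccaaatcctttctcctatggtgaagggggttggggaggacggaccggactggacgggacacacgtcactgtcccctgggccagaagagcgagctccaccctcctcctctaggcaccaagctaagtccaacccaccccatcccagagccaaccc

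Gjb2, minus strand, chr14:57104703-57104952: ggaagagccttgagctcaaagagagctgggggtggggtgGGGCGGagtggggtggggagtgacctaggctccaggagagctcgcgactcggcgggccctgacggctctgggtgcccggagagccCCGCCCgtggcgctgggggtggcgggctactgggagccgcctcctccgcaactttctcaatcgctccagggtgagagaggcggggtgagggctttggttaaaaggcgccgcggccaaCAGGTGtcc

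Of these promoters, Gjb2 held an E-box at -9 from its start and 2 GC boxes, Cldn3 held 1 GC box, and the second Cldn18 promoter held CAAGTG at -98 from its start. Promoter sequences were matched for 43 of the 63 junction genes, 63 promoters in all. The E-box was in 20.6% of these promoters against 17.2% of all 32851 in the table, and CAAGTG in 14.3% against 11.6%. The grainyhead-like site was in 3.17% against 1.79%, and the GC box in 46.0% against 32.7%. Among the tested junction genes with a matched promoter, Cldn5 was the one with the grainyhead-like site. Other tested genes, Cdh1 among them, had no matched promoter. The table covers genes of all kinds, and matched letters are not binding sites.

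Of the 63 junction genes, 38 had a mean log2 signal above 5.18, the median of all probe sets, and were tested. The other 25 lay below it. The closest gene above this level had a mean of 5.22 and the closest below it 4.91. None of the 38 passed limma's test at an adjusted p of 0.05 over the 13112 genes tested, where 0.0991% of all genes were called (0.0839% lower and 0.0153% higher in Atgl KO/cTg). The smallest adjusted p was 0.285 (Cldn18). At an unadjusted p under 0.05 there were 7 of 38 (18.4%), 5 higher and 2 lower in Atgl KO/cTg, against 7.95% of all genes (3.39% higher and 4.56% lower). Groups that did not overlap were found for 5 of 38 (13.2%), 4 higher and 1 lower, against 4.35% of all genes (1.74% higher and 2.62% lower). Differences lay above 0 for 24 of 38 (63.2%), against 47.8% of all genes, with a median of 0.07 against -0.01. With runs of mouse numbers in the sample titles as a block, 3 genes were higher and 2 lower at an unadjusted p. Cldn23, Tjp3 and Gjc1 were no longer among them and Cldn5 was. In that fit 6.84% of all genes had an unadjusted p under 0.05, both directions counted. Shares over the junction genes describe them and were not tested, since they were picked with earlier results of these data known. Without Atgl KO/cTg replicate 3 the count of genes with separate groups was 9, with 3 pools left in that genotype. Fewer pools separate more easily by chance, so the 4.35% of all genes does not apply to this count. No share over all genes is given for that refit. The count of lower genes at an unadjusted p was 4 without Atgl KO/cTg replicate 4. It was 1 when replicate 1 or 2 of that genotype, or replicate 1, 3 or 4 of the controls, was left out. Over all genes the share, both directions counted, was 9.56% without Atgl KO/cTg replicate 4 and 5.68% to 7.95% in those other refits.

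**Figure D1:**
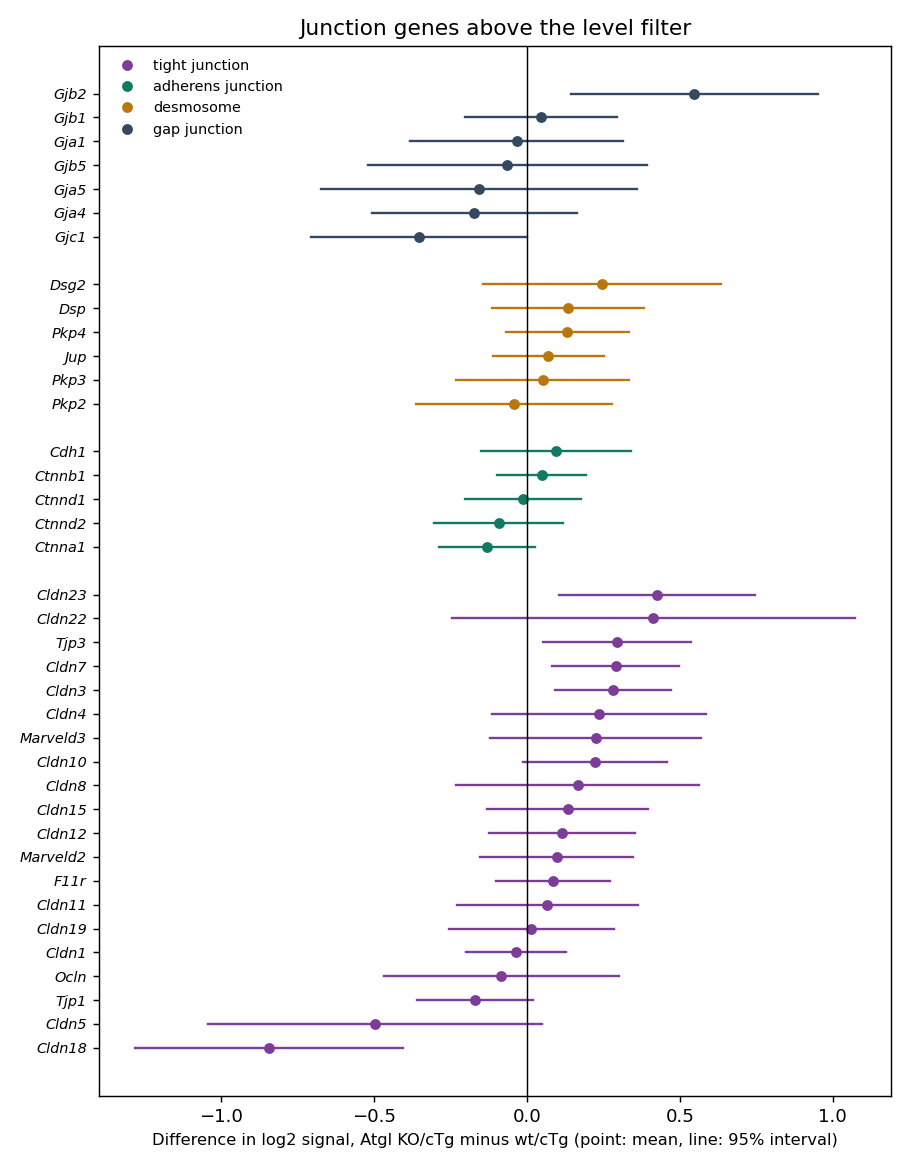
Difference in log2 signal between Atgl KO/cTg and wt/cTg (x axis, points, with 95% intervals from limma as lines) for the 38 junction genes above the level filter (y axis), coloured by structure. Intervals of Cldn3, Cldn7, Cldn23, Tjp3 and Gjb2 lie above 0 and those of Cldn18 and Gjc1 below it, before adjustment, and the intervals of all others cross 0.

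Tight junction genes had differences of both signs. At an unadjusted p under 0.05 there were 5 of 20 (25.0%), 4 higher and 1 lower. Over all genes the share was 7.95% (3.39% higher and 4.56% lower). Of the gap junction genes there were 2 of 7 (28.6%), and of the others none. Of 20 tested genes 15 lay above 0 (75.0%, against 47.8% of all genes) and 5 below, with a median log2 difference of 0.12. All 5 genes with separate groups were tight junction genes (25.0% of 20, against 4.35% of all genes). Among 14 tested claudins 11 lay above 0 (78.6%) and 3 below (median 0.15). None of the 20 was called over all genes, and these shares were not tested.

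Cldn18 is a claudin of the alveolar epithelium, of type 1 and type 2 cells. It read 7.26, 7.63, 7.83 and 7.59 in the Atgl KO/cTg pools and 8.06, 8.34, 8.23 and 9.06 in the wt/cTg pools. Every Atgl KO/cTg pool was below every wt/cTg pool, and wt/cTg replicate 4 was the highest of all. The difference was -0.84 (SE 0.20, 95% interval -1.28 to -0.41), 0.557 of the control level, with a limma adjusted p of 0.285 and an exact permutation p of 0.0286, the smallest that 4 against 4 pools allow. Without wt/cTg replicate 4 it was -0.63, and -0.65 with Atgl KO/cTg replicate 2 left out too.

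Alveolar type 2 markers were lower in the same pools as Cldn18. All 14 tested markers lay below 0, with a median of -0.58, while 47.8% of all genes lay above 0. Of the 14, 5 were called (Lamp3, Hc, Etv5, Slc34a2 and Sftpc), beside 0.0839% of all genes called lower. Their mean log2 signal was 10.16 to 10.38 in Atgl KO/cTg and 10.60 to 11.12 in wt/cTg. Of the alveolar type 1 markers 14 of 15 lay below 0 (median -0.21), with mean signals of 7.90 to 8.28 and 8.07 to 8.85, which overlap.  The part of these cells in the difference of Cldn18 was not tested.

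Cldn3 and Cldn7, claudins found widely in simple epithelia, and Tjp3 (ZO-3), an epithelial member of the zonula occludens family, lay a little higher in every Atgl KO/cTg pool. Cldn3 read 9.44, 9.72, 9.51 and 9.66 in Atgl KO/cTg against 9.32, 9.15, 9.40 and 9.35 in wt/cTg. The nearest pools of the 2 genotypes were only hundredths of a log2 unit apart, and the difference was 0.28 (SE 0.09, limma adjusted p = 0.446). Cldn7 read 9.44, 9.66, 9.43 and 9.62 against 9.41, 9.06, 9.17 and 9.35. Its difference was 0.29 (SE 0.09, limma adjusted p = 0.462), and wt/cTg replicate 1 came closest to the knockout pools. Tjp3 read 7.73, 7.89, 7.65 and 7.63 against 7.61, 7.56, 7.25 and 7.31, a difference of 0.29 (SE 0.11, limma adjusted p = 0.524). Each of these genes gave an exact permutation p of 0.0286. With both end pools left out, the differences were 0.25 for Cldn3, 0.28 for Cldn7 and 0.20 for Tjp3, which was then above an unadjusted p of 0.05.

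Cldn23 is a claudin reported in several glandular epithelia. It read 5.59, 6.01, 5.56 and 5.66 in Atgl KO/cTg and 5.35, 5.53, 5.0 and 5.23 in wt/cTg. The groups did not overlap, and the level was close to the filter. The difference of 0.43 (SE 0.15) had a limma adjusted p of 0.496 and an exact permutation p of 0.0286. It was 0.31 without both end pools, where its unadjusted p was above 0.05.

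**Figure D2:**
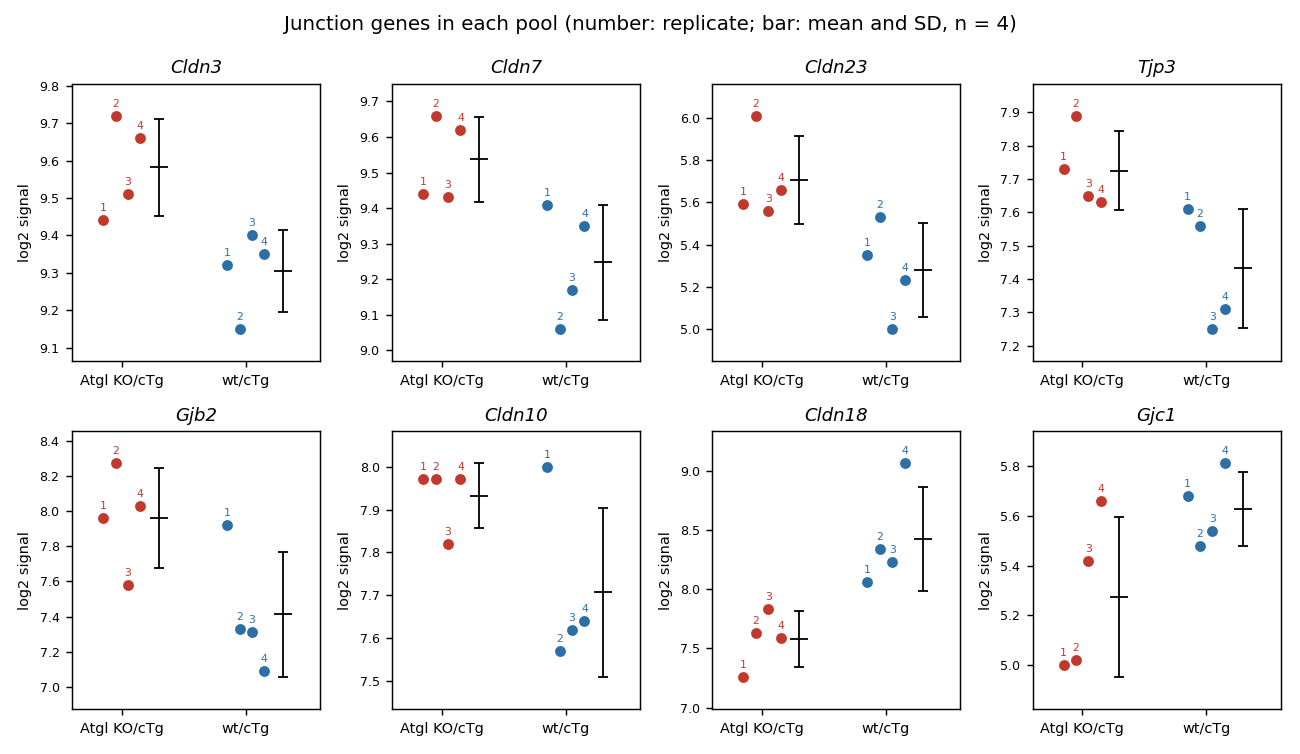
Log2 signal (y axis) of 8 junction genes in each pool (points, numbered by replicate) of Atgl KO/cTg (red) and wt/cTg (blue), with mean and SD (n = 4) beside them. Groups are separate for Cldn3, Cldn7, Cldn23, Tjp3 and Cldn18, while Gjb2, Cldn10 and Gjc1 overlap through 1 or more pools.

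Cldn10, a claudin long used as a marker of club cells and their precursors, read 7.97, 7.97, 7.82 and 7.97 in Atgl KO/cTg and 8.0, 7.57, 7.62 and 7.64 in wt/cTg. Only wt/cTg replicate 1 reached the knockout pools. The difference was 0.22 (95% interval -0.01 to 0.46, limma adjusted p = 0.646), and 0.32 without that pool. Cldn4, the chromosomal neighbour of Cldn3 and a claudin that tightens epithelia against sodium, read 6.93, 6.57, 6.81 and 6.87 against 6.75, 6.86, 6.51 and 6.13. The groups overlapped, with wt/cTg replicate 4 lowest, and the difference of 0.23 (95% interval -0.12 to 0.58) was 0.09 without that pool.

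Cldn5 is the main claudin of endothelium. It read 8.11, 7.60, 8.45 and 8.56 in Atgl KO/cTg and 8.72, 8.24, 8.42 and 9.35 in wt/cTg. The end pools, knockout replicate 2 and control replicate 4, were also its lowest and highest. The difference was -0.50 (95% interval -1.04 to 0.05, limma adjusted p = 0.660). It was -0.28 without wt/cTg replicate 4, -0.30 without Atgl KO/cTg replicate 2, and -0.08 without both.

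The strand partners and scaffolds other than Tjp3 differed by less. Tjp1 (ZO-1) read 9.31, 9.19, 9.44 and 9.51 in Atgl KO/cTg and 9.48, 9.50, 9.47 and 9.68 in wt/cTg, a difference of -0.17 (SE 0.09, limma adjusted p = 0.660), and -0.06 without both end pools. Occludin read 7.10, 6.67, 7.13 and 7.21 against 6.81, 7.31, 6.84 and 7.49, with overlapping groups and a difference of -0.09 (95% interval -0.47 to 0.30) that turned to 0.04 without wt/cTg replicate 4. F11r (JAM-A) stood at 0.08 (95% interval -0.10 to 0.27), Marveld2 (tricellulin) at 0.10 and Marveld3 at 0.22. These rested on single pools: without Atgl KO/cTg replicate 4 F11r was 0.03 and Marveld2 0.0057, and without wt/cTg replicate 3 Marveld3 was 0.09. The remaining tested claudins were Cldn1 (-0.04), Cldn8 (0.16), Cldn11 (0.07), Cldn12 (0.11), Cldn15 (0.13), Cldn19 (0.01) and Cldn22 (0.41). Cldn22 rested on single pools, at 5.75 in wt/cTg replicate 4 and 7.60 in Atgl KO/cTg replicate 2, and its difference was -0.07 without both. The other 6 also moved by over 1.5 times or changed sign when a single pool was left out: Cldn1 was 0.0016 without wt/cTg replicate 4, Cldn11 was -0.02 without Atgl KO/cTg replicate 2, Cldn19 was -0.05 without wt/cTg replicate 2, and Cldn8, Cldn12 and Cldn15 were 0.02, 0.04 and 0.05 without wt/cTg replicate 3. The level filter left out 9 claudins: Cldn2, Cldn6, Cldn9, Cldn13, Cldn14, Cldn16, Cldn17, Cldn20 and Cldn24.

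No tested gene of the adherens junction core was called between genotypes. Of 5 tested genes 2 lay above 0 (beside 47.8% of all genes) and 3 below, with a median of -0.01 and no unadjusted p under 0.05. E-cadherin (Cdh1) read 10.39, 9.97, 10.29 and 10.56 in Atgl KO/cTg and 10.19, 10.08, 10.24 and 10.31 in wt/cTg, so the control pools lay within the range of the knockout pools. The difference was 0.10 (95% interval -0.15 to 0.34, limma adjusted p = 0.878). It was 0.21 without Atgl KO/cTg replicate 2, the lowest pool, with an unadjusted p then under 0.05, and 0.01 without Atgl KO/cTg replicate 4, the highest. Without both end pools it was 0.24, again with an unadjusted p under 0.05. A second Cdh1 probe set read 9.97, 10.17, 10.05 and 10.18 against 10, 9.87, 9.85 and 9.88, a difference of 0.19 (exact permutation p = 0.0571), and there Atgl KO/cTg replicate 2 was not low.

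Beta-catenin (Ctnnb1), which links E-cadherin to alpha-catenin and also carries Wnt signals, read 9.65, 9.79, 9.77 and 9.76 against 9.68, 9.71, 9.61 and 9.76. Its difference of 0.05 had a 95% interval of -0.10 to 0.19, the narrowest of the adherens junction genes. Alpha-catenin (Ctnna1), the link to actin, read 9.26, 9.26, 9.36 and 9.34 against 9.46, 9.41, 9.33 and 9.55, a difference of -0.13 (SE 0.07, limma adjusted p = 0.696), and -0.08 without both end pools. The p120 catenin Ctnnd1 stood at -0.01 and its neural relative Ctnnd2 at -0.09. Ctnna2 and Ctnna3, alpha-catenins of nerve and of heart and testis, lay below the filter.

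In desmosomes 6 of 15 genes were tested, and 5 of the 6 lay above 0 (median 0.10), beside 47.8% of all genes. None had an unadjusted p under 0.05 or separate groups. Desmoplakin (Dsp) read 7.62, 7.89, 7.52 and 7.61 in Atgl KO/cTg and 7.62, 7.63, 7.57 and 7.29 in wt/cTg, a difference of 0.13 (95% interval -0.11 to 0.38) that was -0.02 without both end pools. Plakoglobin (Jup), which also serves adherens junctions, read 8.68, 8.71, 8.94 and 8.84 against 8.72, 8.81, 8.66 and 8.70, a difference of 0.07 (95% interval -0.11 to 0.25). Pkp4 stood at 0.13 (SE 0.09, limma adjusted p = 0.774), Pkp3 at 0.05 and Pkp2 at -0.04. Jup was 0.02 without Atgl KO/cTg replicate 3, and without Atgl KO/cTg replicate 2 Dsp was 0.06, Pkp3 -0.03 and Pkp2 0.02.

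Of the 9 desmosomal cadherins, which lie in 1 cluster on chromosome 18, only Dsg2, the desmoglein of simple epithelia and heart, was above the filter. It read 7.12, 7.32, 6.83 and 7.30 in Atgl KO/cTg and 7.24, 7.12, 6.79 and 6.44 in wt/cTg. The groups overlapped, and the difference of 0.24 was 0.09 without wt/cTg replicate 4. A second probe set gave 0.06. The other 8, mostly cadherins of stratified epithelia, read 2.80 to 5.02 in all pools. Pkp1, the plakophilin of skin, lay below the filter as well.

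Gap junction genes had differences of both signs, with 2 of 7 tested genes above 0 (beside 47.8% of all genes) and 5 below (median -0.06). Gjb2 (connexin 26), an epithelial connexin, read 7.96, 8.27, 7.58 and 8.03 in Atgl KO/cTg and 7.92, 7.33, 7.31 and 7.09 in wt/cTg. All knockout pools but replicate 3 were above all control pools, and wt/cTg replicate 1 was the one control pool above 7.33. The difference of 0.55 (SE 0.18, 95% interval 0.14 to 0.95), 1.46 times the control level, had a limma adjusted p of 0.487 and an exact permutation p of 0.0571. It was 0.72 without wt/cTg replicate 1 and 0.34 without both end pools, where its unadjusted p was above 0.05. Its neighbours in the connexin cluster of chromosome 14, Gja3 and Gjb6, lay below the filter, at 3.65 to 3.90 and 4.63 to 5.33.

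Gjc1 (connexin 45), a connexin of vascular and other smooth muscle and of the heart's conduction system, read 5.0, 5.02, 5.42 and 5.66 in Atgl KO/cTg and 5.68, 5.48, 5.54 and 5.81 in wt/cTg. Atgl KO/cTg replicates 1 and 2 were low, under the level filter of 5.18, and replicates 3 and 4 were close to the controls. The difference was -0.35 (SE 0.16, limma adjusted p = 0.622), and -0.21 without both end pools. Its unadjusted limma p of 0.0490 was above 0.05 with arrays weighted, with the sex score as a term and when any of several single pools was left out. Gja1 (connexin 43), the most widely expressed connexin of tissues, read 8.38, 8.30, 7.91 and 8.38 against 8.59, 8.41, 7.85 and 8.27, a difference of -0.03 (95% interval -0.38 to 0.31).

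The vascular connexins Gja4 and Gja5 (connexins 37 and 40) stood at -0.17 and -0.16. Gja4 was -0.08 without wt/cTg replicate 4, -0.30 without Atgl KO/cTg replicate 3 and -0.04 without both end pools. Gja5 turned to 0.07 without wt/cTg replicate 4, where it read 6.42 against 5.21 to 5.70 in the other controls. Gjb1 stood at 0.05 and Gjb5 at -0.06. Without Atgl KO/cTg replicate 2 Gjb1 was -0.0084, and without wt/cTg replicate 1 Gjb5 was 0.14. Of the 5 connexins below the filter, Gja6 had separate groups, at 3.48 to 3.73 in Atgl KO/cTg and 3.19 to 3.37 in wt/cTg. These readings are near the low end of the arrays, and the difference of 0.35 was tested with no level filter only, where its unadjusted p was under 0.05.

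Genes of other cell types followed the same pools as several junction genes. For 16 pairs of a junction gene and the marker score of a cell type that uses it, the correlation over the 8 pools was computed, with exact permutation p-values adjusted over the 16. Cldn5 had r = 0.95 with the score of 19 endothelial markers (exact adjusted p = 0.00754; Spearman rho = 0.98, exact adjusted p = 0.00635) and r = 0.77 without both end pools. Cldn15, a claudin known from gut and mesothelium, had r = 0.95 with 9 mesothelial markers (exact adjusted p = 0.00754; rho = 0.86, exact adjusted p = 0.0571) and r = 0.91 without the 2 pools farthest from the median score. As deviations from the genotype means, these values were 0.93 and 0.95. The scores of both genotypes did not overlap for alveolar type 2 cells, smooth muscle and heart muscle, so only the deviations are given there. With alveolar type 2 markers these were r = 0.58 for Cldn18, 0.10 for Cldn3 and -0.12 for Cdh1. With smooth muscle they were 0.76 for Gjc1 and 0.02 for Gja1. With heart muscle they were 0.11 for Pkp2 and 0.67 for Ctnna3, which lay below the filter. Cldn18 with the alveolar type 1 score gave r = 0.79 (exact adjusted p = 0.0641), 0.77 as deviations and 0.29 without both end pools. Cldn10 with the club cell score gave r = 0.59 (exact adjusted p = 0.141; rho = 0.52, exact adjusted p = 0.346) and r = 0.33 without the 2 pools farthest from the median score. Cldn7 with the ciliated score gave r = 0.29 (exact adjusted p = 0.610; rho = 0.50, exact adjusted p = 0.346) and 0.31 without 2 pools. Among the pairs whose scores overlapped, those other than Cldn5 and Cldn15 had exact adjusted p-values for r of 0.0641 to 0.808. The pools share amplification and array processing, and no batch was given in the sources used here, so values within batches could not be computed.

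**Figure D3:**
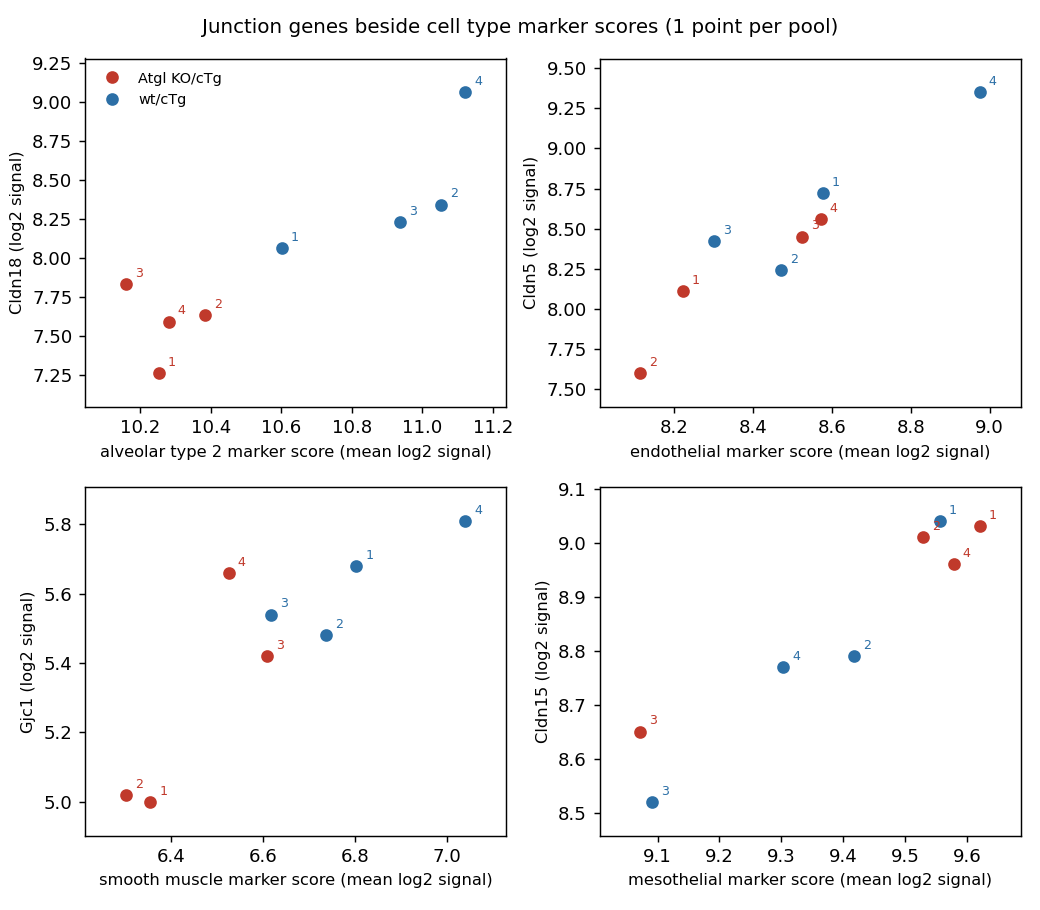
Log2 signal of 4 junction genes (y axes) against the mean log2 signal of cell type markers (x axes), 1 point per pool, numbered by replicate, red for Atgl KO/cTg and blue for wt/cTg. The genotypes form separate clusters for Cldn18 and alveolar type 2 markers, while Cldn15 and mesothelial markers range together across both genotypes.

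The levels of the other cell types stand beside the differences. Over all genes 47.8% of differences lay above 0. Endothelial markers lay below 0 for 16 of 19 (median -0.27), with mean signals of 8.11 to 8.57 in Atgl KO/cTg and 8.30 to 8.97 in wt/cTg. Smooth muscle markers lay below 0 for 7 of 9 (median -0.36), at 6.30 to 6.61 and 6.62 to 7.04. Mesothelial markers lay above 0 for 9 of 9 (median 0.11), at 9.07 to 9.62 and 9.09 to 9.56. Among airway epithelial types, club cell markers lay above 0 for 10 of 13 (median 0.11), ciliated markers for 13 of 14 (median 0.20) and goblet markers for 11 of 11 (median 0.57). Goblet means ran from 7.72 to 8.72 and from 6.83 to 7.79, highest in Atgl KO/cTg replicate 2 and lowest in wt/cTg replicate 4. Heart muscle markers lay below 0 for 7 of 9 (median -0.39), with 2 called lower, beside 0.0839% of all genes. Neutrophil markers lay above 0 for 9 of 9 (median 0.49, none called). No endothelial, smooth muscle, mesothelial, club, ciliated or goblet marker was called over all genes. Their part in the differences of the junction genes was not tested.

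The proteins that work beside these junctions were followed through a list of 74 partners, of which 64 were tested. None was called, and 24 lay above 0 (37.5%, against 47.8% of all genes) and 40 below (median -0.03). At an unadjusted p under 0.05 there were 7 (10.9%), 2 higher and 5 lower. Over all genes the share was 7.95% (3.39% higher and 4.56% lower). Cingulin (Cgn), a cytoplasmic tight junction protein that binds the Tjp scaffolds, read 7.80, 7.92, 7.91 and 8.19 in Atgl KO/cTg and 7.54, 7.79, 7.71 and 7.64 in wt/cTg. All knockout pools were above all controls, with a difference of 0.29 (SE 0.10, limma adjusted p = 0.524, exact permutation p = 0.0286). Crb3, an apical polarity protein, stood at 0.28 (95% interval -0.02 to 0.58) and Krt18, a keratin of simple epithelia, at 0.25 (95% interval 0.02 to 0.48), both with overlapping groups.

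Among partners on the other side, Cdh16, a cadherin known from kidney and thyroid, read 5.03, 5.13, 5.07 and 5.08 in Atgl KO/cTg and 5.28, 5.61, 5.96 and 5.85 in wt/cTg. The knockout pools lay close together and under the level filter, below all controls, so the gene was tested only through the level of the control pools. The difference was -0.60 (SE 0.15, limma adjusted p = 0.301). Esam, an endothelial adhesion molecule, stood at -0.38 (SE 0.12) and Des, the intermediate filament of muscle, at -0.36 (SE 0.14), with limma adjusted p of 0.456 and 0.547. Without both end pools Des stood at -0.20. Both are also on the marker lists, of endothelium and of smooth muscle.

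Of 36 regulators of epithelial junctions 27 were tested, 16 above 0 (59.3%, against 47.8% of all genes) and 11 below (median 0.11), and none was called. At an unadjusted p under 0.05 there were 5 higher and 4 lower, 33.3% of those tested beside 7.95% of all genes (3.39% higher and 4.56% lower). Snai1, a repressor of E-cadherin, read 6.26, 6.64, 6.86 and 6.80 in Atgl KO/cTg and 7.26, 7.10, 7.29 and 6.99 in wt/cTg, with separate groups and a difference of -0.52 (SE 0.14, limma adjusted p = 0.398, exact permutation p = 0.0286). Its relative Snai2, also found in mesenchymal and basal cells, read 6.82, 6.14, 6.67 and 6.62 against 7.50, 7.38, 6.75 and 7.29, a difference of -0.67 (SE 0.18, limma adjusted p = 0.398). Here knockout replicate 1 lay above control replicate 3. Fibroblast markers lay below 0 for 11 of 12 tested (median -0.35), at mean signals of 8.94 to 9.44 and 9.32 to 9.74, and their part in the lower Snai1 and Snai2 was not tested.

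St14 (matriptase), a membrane protease needed for epithelial barriers, read 8.04, 8.60, 8.20 and 8.36 in Atgl KO/cTg and 7.95, 8.01, 7.74 and 7.77 in wt/cTg. The groups were separate. The difference of 0.43 (SE 0.12) had a limma adjusted p of 0.399 and an exact permutation p of 0.0286. Foxa1, a transcription factor of airway epithelium, read 8.41, 8.84, 8.42 and 8.61 against 8.46, 8.15, 8.28 and 8.10, with wt/cTg replicate 1 inside the knockout range and a difference of 0.32 (SE 0.12, limma adjusted p = 0.524). It was 0.18 without both end pools.

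**Figure D4:**
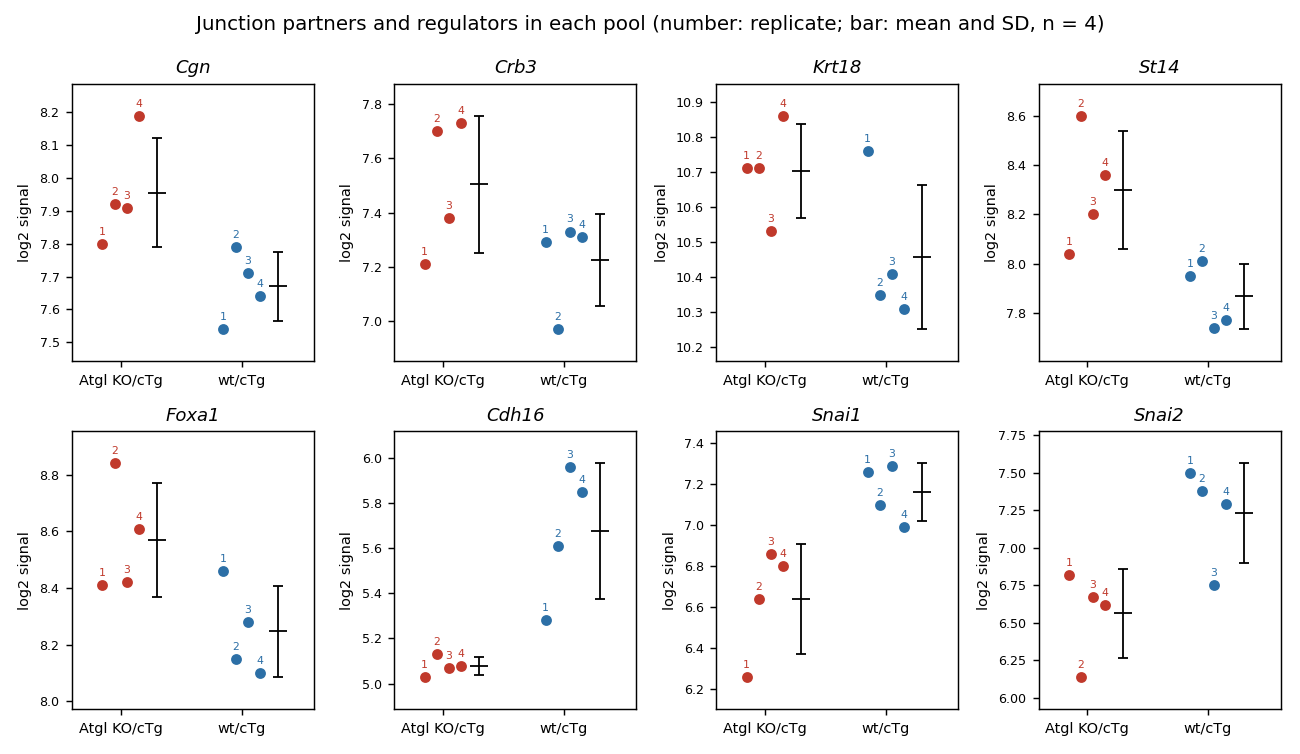
Log2 signal (y axis) of 5 partners and regulators higher and 3 lower in Atgl KO/cTg, in each pool (points, numbered by replicate; red Atgl KO/cTg, blue wt/cTg), with mean and SD (n = 4). Cgn, St14, Cdh16 and Snai1 have separate groups, and Crb3, Krt18, Foxa1 and Snai2 overlap. The knockout pools of Cdh16 lie under the level filter.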

How the data were processed

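RNA of 8 pools of club cells (4 per genotype, numbered here in sample order) was extracted with a miRNeasy Micro kit, and 50 ng was amplified with NuGEN Ovation Pico and labelled with biotin, per the labels' protocols. The authors deposited a log2 signal for each probe set on each array, and it was used unchanged (range 1.85 to 13.5). The sources used here do not give the software, background correction or normalization. The number of arrays limits the precision.

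Of 41345 probe sets 23521 had 1 gene symbol, 1814 several and 16010 none. The probe set with the highest mean was kept per gene (22180), and genes with a mean above 5.18 were tested (13112). The comparison of genotypes used limma 3.58.1 under R 4.3.3 (eBayes with a variance trend, two-sided, Benjamini-Hochberg over all genes tested, threshold 0.05), beside exact two-sided permutation tests over 70 arrangements. The steps were checked on simulated data. Figures were drawn with matplotlib 3.10.9.

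Members and lists were chosen with earlier results of these data known. Genes given with their own test were the 8 members per direction with the smallest p, 14 set members, 3 partners and 2 regulators per direction, and Pnpla2; other members have values only. The series' design speaks of 4 sets of knockout and control samples, but membership of a set is not labelled, so the pools were not paired; runs of mouse numbers in the titles were tried as a block. Alternatives are listed in the closing section.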

Additional observations from a re-analysis of the deposited data

Results flagged for a closer look

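Dixon's ratio, the gap of the most distant pool over the range of its group of 4, was above its 95% critical value in 4 of 76 groups, and chance gives about 1 in 20. Cldn10 read 7.82 in Atgl KO/cTg replicate 3, below the 7.97 of each other knockout pool, and 8.0 in wt/cTg replicate 1, above the 7.57 to 7.64 of the other controls. Cldn22 read 7.60 in Atgl KO/cTg replicate 2 against 6.91 to 6.98 in the others. Tjp1 read 9.68 in wt/cTg replicate 4 against 9.47 to 9.50 in the others.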

How the results depend on the processing

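The comparison was refitted in 19 other ways: another level filter or none, no variance trend, averaging all probe sets of a gene, centring on medians, quantile normalization, weighting of arrays, sex score or age as a term, runs of mouse numbers in the titles (where wt/cTg replicate 3 stands alone and drops out), each array left out, and, added after the data were seen, both end pools left out together. No junction gene was called in any of them, and Pnpla2 was called in all. No paired analysis was possible by replicate number, because the labels carry none; the runs of mouse numbers were the one block tried.

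The count of genes called over the whole table was 7 with age or without a level filter, 23 with array weights, 3 with runs of mouse numbers, 1 without the variance trend or after quantile normalization, 8 without both end pools, and 1 to 25 with an array left out. Junction genes lower at an unadjusted p numbered 1 with array weights, a mean above 6, the sex score or without both end pools. They numbered 3 with age or centring on medians, and 1 to 4 with an array left out. Junction genes higher numbered 3 with runs of mouse numbers and without both end pools, and 4 with a mean above 6 or centring on medians. They numbered 6 after quantile normalization or without a level filter (63 genes then tested), and 4 to 6 with an array left out. The share of all genes at an unadjusted p, both directions counted, moved as well. It was 8.1% with array weights, 8.4% with a mean above 6 and 7.44% with the sex score. With age it was 8.24%, with centring on medians 7.35%, after quantile normalization 8.61% and without a level filter 6.66%. With runs of mouse numbers it was 6.84%, without both end pools 5.51%, and with an array left out 5.68% to 9.56%. Junction genes with separate groups numbered 5 to 9 with an array left out, where fewer pools separate more easily by chance. No share over all genes is given beside that range. The median of the gap junction genes was -0.21 with runs of mouse numbers. Small differences changed sign: without both end pools Gja5 was 0.20, Dsp -0.020 and Ocln 0.16. With an array left out Gja5 ran from -0.34 to 0.066, Ocln from -0.19 to 0.040 and Gja1 from -0.18 to 0.075. Above 0 were Gja5 without control replicate 4, Ocln without either end pool (0.033 without the knockout one), and Gja1 without knockout replicate 3 or without control replicate 1 (0.068) or 2 (0.0083). The cause was not tested. Cldn18 ran from -0.97 to -0.63, Cldn3 from 0.23 to 0.33 and Cldn7 from 0.23 to 0.34 with an array left out.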
